A study of Mus musculus with 6 samples.

Results

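The granins are acidic proteins that are packed with peptide hormones into dense-core secretory granules. The levels of the transcripts of 4 of them, *Chga*, *Chgb*, *Scg2*, and *Scg3*, and of the related secretory protein gene *Vgf* were described in single islet cells. These 5 genes were found by symbol among the 32285 genes of the deposited count tables, and none of them was used to set a cell class. Islets came from 3 WT and 3 β14-3-3ζ–KO mice of the C57/BL6 strain aged 12 to 14 weeks, with 1 Chromium 3′ library per mouse. KO mice carried *Ins1*-CreThor and *Ywhaz* alleles with LoxP sites, so that the gene for 14-3-3ζ is deleted where *Ins1* is transcribed, in β cells, and the WT littermates also carried Cre. Libraries, and not cells, are the replicates (n = 3 per genotype).

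As background, CHGA and CHGB (chromogranins A and B) and SCG2 (secretogranin II) help to condense the granule content, and they are cut into shorter peptides by the same prohormone convertases that process insulin and glucagon. SCG3 (secretogranin III) tethers CHGA to the cholesterol-rich granule membrane. VGF is a neurosecretory protein induced by nerve growth factor in neurons and is also a precursor of peptides. Islet endocrine cells, adrenal chromaffin cells, and neurons are the classical sources of all 5 proteins, and circulating CHGA serves as a marker of neuroendocrine tumors.

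The 5 genes lie on 5 chromosomes in GENCODE vM21 (GRCm38), and all 5 identifiers in the files matched that annotation. *Chga* (ENSMUSG00000021194) spans chr12:102554969-102565028 on the + strand with 8 exons in its principal transcript. *Chgb* (ENSMUSG00000027350) spans chr2:132781278-132795079 on the + strand with 5 exons. *Scg2* (ENSMUSG00000050711) spans chr1:79434669-79440120 on the − strand with 2 exons. *Scg3* (ENSMUSG00000032181) spans chr9:75643189-75684056 on the − strand with 12 exons. *Vgf* (ENSMUSG00000037428) spans chr5:137026392-137033351 on the + strand with 5 exons. The assay captures molecules at the poly(A) end, so that UMIs (unique molecular identifiers) count molecules that end in the last exon and do not grow with transcript length.

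The cAMP response element (CRE, letters TGACGTCA, its own reverse complement) is a known binding site of CREB-family factors in granin promoters. RefSeq promoter windows (GRCm38.p6, 250 bases before to 50 after the start) were given for *Chga*, *Chgb*, *Scg2*, and *Scg3*. The 30 bases around the CRE or its nearest relative in each window are shown because the letters differ between genes whose levels also differed between cell classes. Capitals mark bases that match the CRE, and lower case marks the rest.

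Chgb: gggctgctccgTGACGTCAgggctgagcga

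Scg2: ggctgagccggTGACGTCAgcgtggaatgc

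Chga: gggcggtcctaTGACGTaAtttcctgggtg

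Scg3: cgctgggtcgcTGACGcCAtcctcacgcct

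These windows lie at chr2:132781559-132781588 (+ strand), chr1:79440076-79440105 (− strand), chr12:102554886-102554915 (+ strand), and chr9:75684068-75684097 (− strand). The full CRE was present in *Chgb*, starting 72 bases before the RefSeq start (position -72), and in *Scg2* (position -68), and 1.79% of 32817 promoter windows held it. In *Chga* (position -44) and *Scg3* (position -30), 7 of the 8 letters matched. The core TGACG, searched on both strands and part of the full element, was present in all 4 genes and in 20.8% of all windows. In GENCODE, the *Chgb* and *Scg2* windows fall inside an annotated exon of the gene, whereas those of *Chga* and *Scg3* are upstream of every exon of the gene. A match of letters is a description of sequence and not a measured site. *Vgf* is named only.

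The 6 libraries held 43445 barcodes and 74083947 to 98294915 UMIs each, and 25420 barcodes were kept after those with under 500 genes, over 10% mitochondrial UMIs, or a doublet call were left out. Each endocrine cell took the class of the hormone that dominated its UMIs, which gave 6063 β, 713 α, 609 δ, and 232 *Ppy* cells. *Ppy* cells were few, with 16 to 47 per library. The marker lists held none of the hormones that set the classes. *Iapp* in the β list and *Pyy* in the *Ppy* list were counted among the hormone transcripts below. The β list summed to 35933 to 38881 CPM (counts of a gene scaled to equal library totals) in β cells and to 4010 to 6692 CPM in α cells. That list also held *Slc30a8*, which by itself was higher in α than in β cells (value given below). The α list summed to 10423 to 14733 CPM in α cells and to 270 to 603 CPM in β cells. δ cells held their own list at 4330 to 5922 CPM, but also the β list at 26075 to 33390 CPM, the *Ppy* list at 43483 to 53417 CPM, and the hormone *Ppy* at 22566 to 29337 CPM. The part of these in the δ values was not tested, and the class is named for its dominant hormone, *Sst*. Another 11546 kept barcodes, most of them shallow, stayed unclassed. Across 15 pairs of libraries, 17 classed barcodes were shared in all. Over all β cells, *Ywhaz* fell from 123 to 166 CPM in WT to 19.8 to 20.5 CPM in KO libraries, for a log2 fold change of -2.91 (FDR = 4.43e-06, edgeR). *Ywhaz* was not called in α (-0.14), δ (-0.05), or *Ppy* cells (-0.29), although KO lay below WT in every *Ppy* library.

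Within this background, the endocrine classes differed in which member was high and in the summed level. δ cells, which secrete somatostatin, held the highest *Chgb*, and in CPM of all UMIs also the highest *Scg2*, which was level with β cells on the TMM scale and without hormones. β and α cells held the highest *Chga* and *Vgf*, α cells held little *Scg2*, and *Ppy* cells were lowest in *Chga*, *Scg3*, and *Vgf*. Summed over the 5 genes, the members made up 0.827% ± 0.0711 of UMIs in β cells, 0.634% ± 0.0125 in α cells, 1.17% ± 0.0331 in δ cells, and 0.433% ± 0.0348 in *Ppy* cells (SD, n = 6 libraries). Without hormone UMIs these shares were 1.58% ± 0.222, 0.871% ± 0.0215, 1.53% ± 0.0380, and 0.838% ± 0.0858 in the same order. δ cells thus led only as a share of all UMIs.

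**Figure D1:**
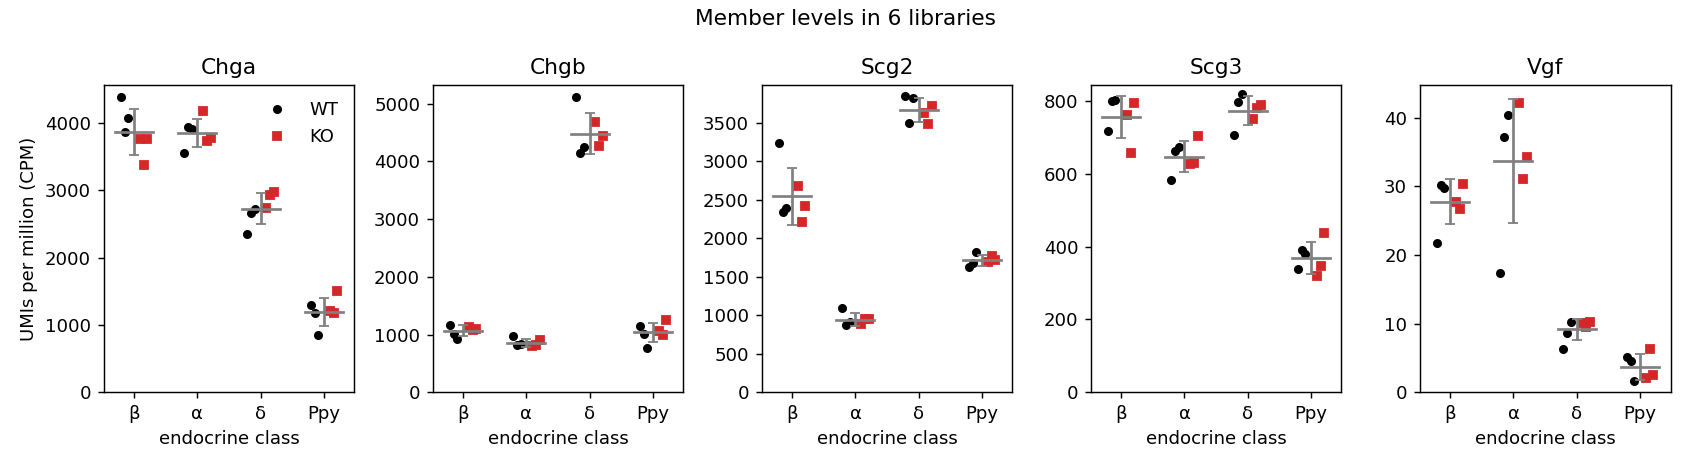
Level of each member in CPM (counts scaled to equal totals, vertical axis from 0) in β, α, δ, and Ppy cells, 1 point per library (black circles WT, red squares KO), with the mean and SD over 6 libraries in gray. Chgb stands at 4152 to 5108 CPM in δ cells and at or below 1259 CPM in every library of the other classes.

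*Chga*, the founding granin, was the most abundant member of β and α cells. In β cells it stood at 4391, 3874, and 4078 CPM in WT and at 3759, 3377, and 3764 CPM in KO libraries 1 to 3. In α cells it stood at 3552, 3945, and 3910 CPM in WT and at 4177, 3740, and 3785 CPM in KO libraries. The β and α ranges overlapped. δ cells held 2348 to 2972 CPM, below every β and α library, and *Ppy* cells held 852 to 1498 CPM, below every δ library.

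*Chgb*, which encodes chromogranin B, had another order. δ cells held 5108, 4152, and 4257 CPM in WT and 4674, 4261, and 4441 CPM in KO libraries. β cells held 916 to 1171 CPM, α cells 796 to 982 CPM, and *Ppy* cells 766 to 1259 CPM, and these 3 ranges overlapped. The ratio of *Chgb* to *Chga* molecules was 0.277 ± 0.0334 in β cells, 0.225 ± 0.0298 in α cells, 0.868 ± 0.0260 in *Ppy* cells, and 1.66 ± 0.267 in δ cells (SD, n = 6).

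*Scg2*, the precursor of secretoneurin, was high in δ cells, at 3843, 3502, and 3818 CPM in WT and 3629, 3487, and 3712 CPM in KO libraries. β cells followed with 3237, 2342, and 2388 CPM in WT and 2681, 2216, and 2423 CPM in KO libraries, and WT library 1 was the highest of the 6. *Ppy* cells held 1623 to 1827 CPM and α cells 872 to 1090 CPM. The 4 ranges did not overlap in CPM of all UMIs, and α cells carried the least *Scg2* in every library.

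*Scg3*, the membrane adaptor, was the most even member, with 657 to 801 CPM in β cells, 584 to 705 CPM in α cells, and 707 to 819 CPM in δ cells. Only the *Ppy* range of 318 to 437 CPM lay apart. *Vgf* was scarce everywhere. It reached 21.8 to 30.3 CPM in β cells, 17.3 to 42.2 CPM in α cells, 6.25 to 10.3 CPM in δ cells, and 1.65 to 6.32 CPM in *Ppy* cells, and WT library 1 was the lowest in β, α, and δ cells alike.

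As a share of the 5 members' UMIs, *Chga* made up 46.8% ± 1.71 in β and 60.7% ± 2.40 in α cells. In δ cells *Chgb* led with 38.4% ± 2.26, followed by *Scg2* with 31.4% ± 0.894. In *Ppy* cells *Scg2* led with 34.9% to 47.7% over the 6 libraries.

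Differences between classes were tested on 24 sums of UMIs, 1 per class and library, with library as a block in edgeR's quasi-likelihood test on counts scaled by TMM (trimmed mean of M-values). A gene was called at a Benjamini-Hochberg FDR under 0.05 over all genes and an absolute log2 fold change above 0.1. Calls were common in these contrasts. They took 61% of 10753 genes for α against β cells, 60.8% for δ against β, 51.8% for *Ppy* against β, 44.9% for α against δ, 25.8% for α against *Ppy*, and 27% for δ against *Ppy* cells, and contrasts that share a class share its samples. The members' counts are read against these shares: 4, 4, 4, 4, 5, and 4 of the 5 members were called, in the same order.

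Hormone transcripts took 47.2% ± 2.94 of UMIs in β, 27.3% ± 1.04 in α, 23.9% ± 1.46 in δ, and 48.3% ± 2.03 in *Ppy* cells (SD, n = 6), and so a level as a share of all UMIs is lowered most in β and *Ppy* cells. TMM, which scales on the bulk of genes, put α and δ values lower relative to β cells than CPM did. Both scales are given where they part, the CPM scale with a 2-sided exact sign-flip permutation test over 6 libraries, adjusted over 30 comparisons.

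Against β cells, α cells were lower in *Scg2* by a log2 fold change of -1.83 ± 0.0900 (SE, FDR = 1.14e-18), in *Chgb* by -0.71 ± 0.0746 (FDR = 4.47e-10), and in *Scg3* by -0.62 ± 0.0648 (FDR = 3.45e-10, edgeR). These 3 were also lower in 6 of 6 libraries on the CPM scale. *Chga* was lower by -0.41 ± 0.0999 (FDR = 0.000603) on the TMM scale, but its mean log2 ratio in CPM was -0.01 ± 0.169 (SD, n = 6, exact permutation p = 0.969), with α cells higher in 4 of 6 libraries. *Vgf* was not called (log2 fold change -0.11, 95% CI -0.30 to 0.08), and its sign turned on the CPM scale, to 0.23.

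δ cells exceeded β cells in *Chgb* by a log2 fold change with a 95% CI of 1.35 to 1.65 (FDR = 1.71e-18, edgeR), and by 4.20-fold in CPM. *Chga* was lower by -1.08 ± 0.101 (FDR = 2.90e-11) and *Vgf* by -2.18 ± 0.134 (FDR = 5.47e-16, edgeR). *Scg2* was called on neither side by TMM (-0.05, 95% CI -0.22 to 0.13), whereas in CPM δ cells were 1.45-fold higher in 6 of 6 libraries (exact permutation p = 0.031, the smallest that 6 libraries allow, adjusted p = 0.0375). *Scg3* was lower by -0.54 ± 0.0648 on the TMM scale (FDR = 8.84e-09) and level in CPM (0.04, higher in 2 of 6 libraries).

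*Ppy* cells were lower than β cells in *Vgf* (-2.94 ± 0.230, SE, FDR = 7.34e-13), *Chga* (-1.65 ± 0.104, FDR = 2.83e-15), *Scg3* (-0.98 ± 0.0696, FDR = 6.45e-14), and *Scg2* (-0.51 ± 0.0882, FDR = 1.08e-05, edgeR), and all 4 were lower in 6 of 6 libraries in CPM. *Chgb* was not called (0.01, 95% CI -0.14 to 0.16). Since the hormone load of β and *Ppy* cells was close, both scales gave nearly the same values here.

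**Figure D2:**
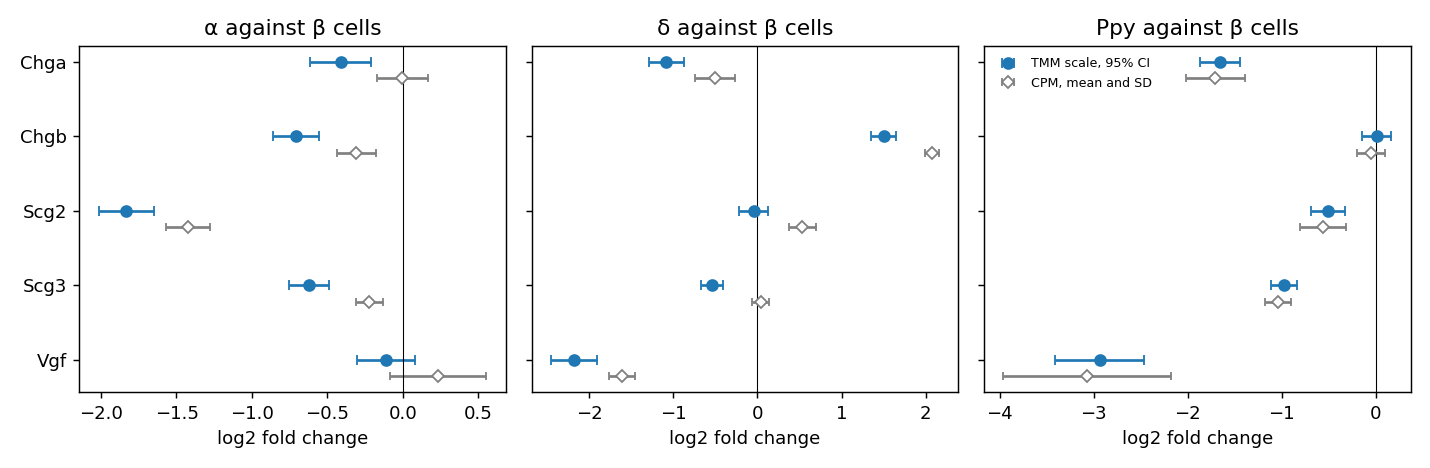
Log2 fold change of each member in α, δ, and Ppy cells against β cells (horizontal axis), on the TMM scale with its 95% confidence interval (blue circles) and as the mean and SD of the CPM ratio over 6 libraries (open diamonds). In α and δ cells the CPM values lie to the right of the TMM values, and in Ppy cells the pairs nearly coincide.

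Among the other classes, α cells exceeded δ cells in *Vgf* by 2.07 ± 0.157 and in *Chga* by 0.67 ± 0.101, and fell short of them in *Chgb* by -2.21 ± 0.0775 and in *Scg2* by -1.79 ± 0.0902 (log2, SE). *Scg3* was not called between α and δ cells on the TMM scale (-0.08, 95% CI -0.22 to 0.05) and was lower in α cells by -0.26 in CPM, in 6 of 6 libraries. δ cells exceeded *Ppy* cells in *Chgb* by 1.49 ± 0.0769 (FDR = 5.14e-17), in *Chga* by 0.57 ± 0.103 (FDR = 4.35e-05), in *Scg2* by 0.46 ± 0.0883 (FDR = 1.01e-04), and in *Scg3* by 0.44 ± 0.0710 (FDR = 8.53e-06, edgeR). *Vgf* did not pass there (0.75 ± 0.336, FDR = 0.0977). α cells exceeded *Ppy* cells in *Vgf* (2.83), *Chga* (1.24), and *Scg3* (0.35), and were below them in *Scg2* (-1.33) and *Chgb* (-0.72) on the log2 scale. That *Chgb* difference was -0.26 in CPM and lower in 5 of 6 libraries only (adjusted p = 0.0721).

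Insulin transcripts were also present in the α sums, at 16884 to 51382 CPM, in the δ sums, at 8769 to 47573 CPM, and in the *Ppy* sums, at 6904 to 39225 CPM. With β cell RNA subtracted in proportion to *Ins2*, the same members were called in each contrast on the TMM scale, and *Vgf* in δ against *Ppy* cells was added (1.21, FDR = 0.0421, edgeR). The subtraction moved *Scg2* in α against β cells from -1.83 to -2.04.

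Genes that act beside the granins were placed by lists whose members were chosen with earlier results known. SCG5 (7B2, the chaperone of the convertase PCSK2) and PCSK1N (proSAAS, an inhibitor of PCSK1) are granin-like. *Scg5* was higher than in β cells in α (0.65), δ (0.42), and *Ppy* cells (1.12, FDR = 4.38e-15), and *Pcsk1n* was higher in α (1.12, FDR = 8.75e-17) and *Ppy* cells (0.40) and did not pass in δ cells (0.11, FDR = 0.127, edgeR). α cells thus held more of both than β cells, and *Ppy* cells, lowest in *Chga*, were not low in either.

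Of the 18 genes of the granule list, 7 were higher and 8 lower in α than in β cells, 4 were higher and 10 lower in δ cells, and 5 were higher and 9 lower in *Ppy* cells. Of all 10753 genes, 3326 were higher and 3229 lower in α, 3217 and 3317 in δ, and 2753 and 2813 in *Ppy* cells. The list's median log2 fold change was -0.07, -0.17, and -0.21, beside 0.02, -0.01, and -0.00 over all genes. In α cells the members furthest from β cells were the convertase *Pcsk1* (-3.83), the granule tether *Sytl4* (-3.81), *Pcsk1n*, and the zinc transporter *Slc30a8* (0.99). In δ cells they were *Sytl4* (-3.59), *Slc30a8* (-2.82), the priming factor *Cadps* (-2.53), and *Pcsk1* (-2.50). In *Ppy* cells they were *Sytl4* (-3.56), *Pcsk1* (-2.77), *Slc30a8* (-1.84), and *Scg5*.

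Of 10 regulators, among them genes of the CREB family, 8 passed the filter on low counts. The neuronal gene repressor *Rest*, also on the list, did not pass it for KO against WT in any endocrine class. In α cells 1 was higher and 4 were lower than in β cells, a share of called genes close to that over all genes (61%), led by *Insm1* (-1.59), a zinc-finger factor of endocrine cells. In δ cells 1 was higher and 4 were lower, led by *Nkx2-2* (-1.33). In *Ppy* cells 6 were lower, led by *Rfx6* (-1.66) and *Insm1* (-1.55). *Creb1*, which encodes a factor that binds the CRE, differed from β cells by 0.18 in α, -0.17 in δ, and -0.24 in *Ppy* cells.

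The pattern of each member over the 24 sums was compared with that of 2424 genes of at least 50 CPM, by Pearson's r of log2(CPM + 1). The sums share 6 libraries and fall into 4 classes, so r is a description. *Chga* was most like *Prpf19* (0.94), *Ppm1b* (0.93), and *BC005537* (0.93). *Chgb* was most like *Selenom* (0.97), *Abca5* (0.96), and *Kcnmb2* (0.96), and *Scg2* was most like *Dnajb9* (0.94), *Herpud1* (0.93), and *S100a1* (0.92). *Scg3* was most like *Hyou1* (0.97), *Ccnd2* (0.96), and *Gars* (0.96), and *Vgf* was most like *Prpf19* (0.94), *Ppm1b* (0.94), and *Maob* (0.93). Among members, r was 0.92 for *Chga* with *Vgf*, 0.86 for *Chga* with *Scg3*, 0.78 for *Chgb* with *Scg2*, and 0.01 for *Chga* with *Chgb*.

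The share of cells of 1 class that carried a member was also described. Each endocrine cell was thinned to 5000 UMIs so that depth was equal, and all endocrine cells had at least that many. The 4 granins were found in nearly every β cell at that depth, in 100% of cells for *Chga*, 99.9% for *Scg2*, 97.4% for *Chgb*, and 95.5% for *Scg3* (means of 6 libraries). Endothelial cells thinned alike had a UMI of *Chga* in 41.4% to 84.5%, of *Scg2* in 39.8% to 82.4%, of *Chgb* in 17.3% to 55.4%, and of *Scg3* in 9.77% to 34.4% of cells. The β shares of the 4 granins lay above these high values. In macrophages thinned alike the shares ran from 47.5% to 93.8%, 44.1% to 84.5%, 16.9% to 51.9%, and 8.47% to 33.3%, in the same order. In B cells thinned alike the shares ran from 70.7%, 66.7%, 31.3%, and 10.1% up to 100% for each gene, in the same order. B cells numbered as few as 13 in a library before thinning. *Vgf* was found in 10.6% ± 1.43 of β, 12.8% ± 3.28 of α, 4.08% ± 1.78 of δ, and 2.21% ± 2.66 of *Ppy* cells (SD, n = 6). Endothelial cells, which should lack it, had a *Vgf* UMI in 0.719% to 2.17% of cells at the same depth, so that the δ and *Ppy* shares reached down to this background and the β and α shares did not. Before thinning, 41.0% ± 4.89 of β cells and 31.7% ± 8.35 of α cells had a *Vgf* UMI, at median depths of 21597 to 43777 and 12463 to 25907 UMIs, and 1.23% to 5.41% of endothelial cells had one, at 8045 to 12416.5 UMIs.

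Spread from cell to cell was described by 2 measures. The variance over the mean of thinned counts, which is near 1 for pure counting noise, had a median over libraries of 6.56 for *Chga* in β cells, beside 2.87 for *Scg2*, 2.65 for *Chgb*, 1.59 for *Scg3*, and 1.16 for *Vgf*. This measure rises with the mean count, which was highest for *Chga*. The tenth of β cells with the most UMIs of a gene held 22.5% of *Chga*, 19.8% of *Scg2*, 25.8% of *Chgb*, 24.1% of *Scg3*, and 87.8% of *Vgf* UMIs (medians of 6 libraries). This share tends to rise where counts are low, and most thinned β cells had no *Vgf* UMI. Neither measure therefore ranks genes of unlike level by evenness. The middle β cell held 15 to 21 *Chga* UMIs of 5000 across libraries, and 1 β cell held 170. In *Ppy* cells the middle cell held 2 to 6, and the tenth of cells with the most *Chga* held 24.9% to 67.8% of all *Chga* UMIs of the class. That share was 16.4% to 20.1% for *Scg2* in δ cells, whose middle cell held 16 to 19 UMIs, so the 2 shares are not ranked. The median of the *Ppy* share was 34.4%.

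**Figure D3:**
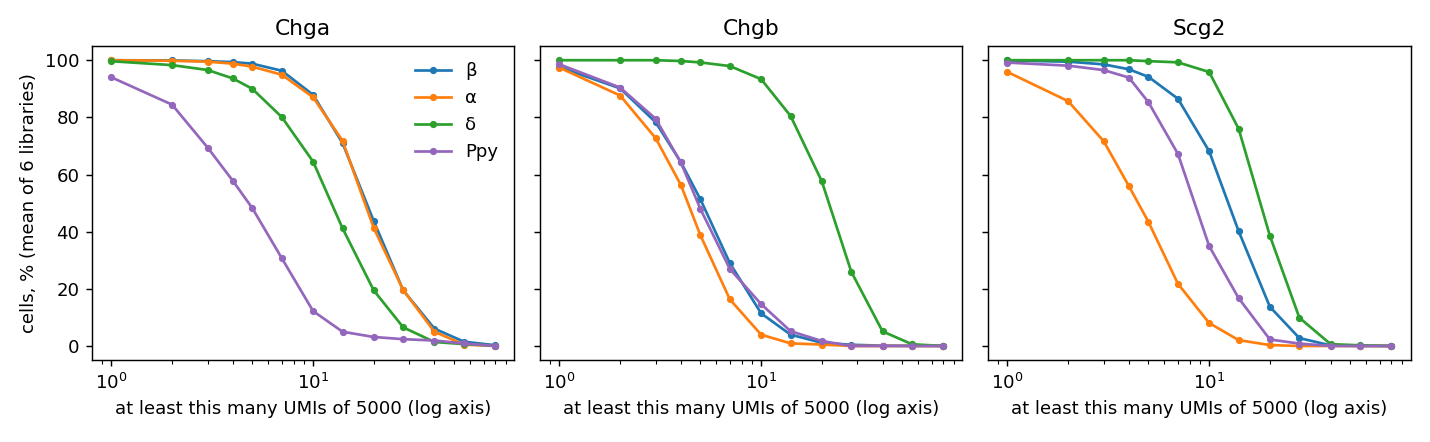
Share of cells (vertical axis, mean of 6 libraries) that hold at least the given number of UMIs of Chga, Chgb, or Scg2 after thinning to 5000 UMIs (horizontal log axis), for β, α, δ, and Ppy cells. The δ curve lies furthest right for Chgb and Scg2, the β and α curves run together for Chga, and the Ppy curve of Chga has a long tail of few cells.

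Within β cells, thinned counts of *Chga* and *Chgb* went together at Pearson's r of 0.24 to 0.36 over libraries, and those of *Scg2* and *Scg3* at 0.22 to 0.28, whereas r for *Chga* and *Vgf* was -0.08 to 0.03. These values are descriptions over cells of 1 library and are limited by sparse counts. Deep and shallow β cells also differed. The deeper cells of a library, split at the median depth, had 0.760 to 0.872 of the *Chga* CPM of the shallower ones and 1.15 to 1.69 times their *Vgf* CPM, and *Scg3* was near level at 0.950 to 1.04.

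The comparison of genotypes asked whether loss of 14-3-3ζ in β cells went with another level of granin transcripts there or in neighboring classes. Only KO β cells without any *Ywhaz* UMI were used, which kept 595 to 789 of 1095 to 1189 KO β cells per library. No member was called in β cells, where edgeR called 1 of 13346 genes (0.00749%), *Ywhaz* itself, whose absence fixed the choice of cells. None of the 5 members had an unadjusted p under 0.05 there, and DESeq2 called 0 of 5.

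TMM-scaled *Chga* in β cells stood at 4954, 3661, and 3814 CPM in WT and at 3874, 3611, and 3672 CPM in KO libraries, and the log2 fold change was -0.16 (95% CI -0.49 to 0.18, edgeR FDR = 0.911). *Scg2* stood at 3652, 2214, and 2233 CPM in WT and at 2687, 2350, and 2343 CPM in KO libraries (-0.13, 95% CI -0.59 to 0.33). WT library 1 was the highest for both, and without it *Chga* was at -0.0067 and the sign of *Scg2* turned to 0.15. Hormone transcripts took 52.8% of β cell UMIs in that library and 44.8% to 48.1% in the others. With hormone UMIs left out of counts and totals the log2 fold changes were nearly as large, at -0.16 for *Chga* and -0.13 for *Scg2*. *Chgb* (0.04, 95% CI -0.32 to 0.39), *Scg3* (-0.07, 95% CI -0.27 to 0.13), and *Vgf* (-0.03, 95% CI -0.23 to 0.16) lay near 0. The interval was widest for *Scg2*.

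On the TMM scale, with KO β cells without *Ywhaz*, the groups overlapped for all 5 members in β cells. There, 11.2% of all genes had WT and KO libraries that did not overlap. In CPM of all UMIs over all β cells, every KO library lay below every WT library for *Chga*. The share of all genes that did so was not computed on that scale, so no result is read from this order. In β and α cells, same-numbered WT and KO libraries deviated together. The labels do not say what the replicate number stands for. The log2 fold changes and intervals given here are from the fit without it. With the replicate number as a block, 13 genes in β and 4 genes in α cells were called, and no member among them.

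In α cells edgeR called 0 of 10208 genes (0%), 385 had an unadjusted p under 0.05, and DESeq2 called 1. The members' log2 fold changes ran from -0.05 for *Chgb* to 0.15 for *Vgf*, whose interval of -0.32 to 0.62 was the widest. WT and KO overlapped for all 5 members, against 9.23% of genes that did not overlap. None of the 5 had an unadjusted p under 0.05.

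In δ cells edgeR called 0 of 10569 genes (0%), 400 had an unadjusted p under 0.05, and DESeq2 called 0. *Chga* stood at 2266, 2705, and 2741 CPM in WT and at 2732, 3082, and 3021 CPM in KO libraries on the TMM scale, for a log2 fold change of 0.20 (95% CI -0.01 to 0.40, edgeR FDR = 1.00). Its unadjusted edgeR p missed 0.05. The KO library 1 value lay just below the highest WT value, and 9.27% of genes did not overlap in this class. *Chgb* (0.02), *Scg2* (-0.01), and *Scg3* (0.03) differed by less than their standard errors, and *Vgf* was at 0.33 with an interval of -0.29 to 0.96.

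In *Ppy* cells 2 of the 4 members tested had an unadjusted edgeR p under 0.05. *Chga* stood at 1215, 1181, and 881 CPM in WT and at 1221, 1263, and 1605 CPM in KO libraries on the TMM scale. All KO libraries were above all WT libraries, which was so for 9.93% of genes in either direction, but KO library 1 exceeded WT library 1 only slightly. The log2 fold change was 0.32 (95% CI 0.05 to 0.60, edgeR unadjusted p = 0.0240) and did not pass the correction (FDR = 0.976). *Chgb* was at 0.28 (95% CI 0.00 to 0.55, edgeR FDR = 0.976), *Scg2* at 0.09, and *Scg3* at 0.07, and *Vgf* had too few UMIs to be tested. In this class edgeR called 1 of 7625 genes (0.0131%), *Gm10076* (-1.25), named after its values were seen, and DESeq2 called 0.

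The size of the *Ppy* difference in *Chga* moved with single libraries and with the choice of cells. It fell to 0.19 without WT library 3 and to 0.19 without KO library 3. It rose to 0.71 (FDR = 0.0624, edgeR) where the *Ppy* hormone had to exceed the others 10-fold rather than 3-fold. That rule kept 14 to 43 *Ppy* cells per library. The variance over the mean of thinned *Chga* counts in *Ppy* cells was 30.6 in WT library 1 (16 cells), 16.2 in KO library 3, and 11.6 in KO library 1. In the other libraries it was at most 3.59. The part of single *Chga*-rich cells in the library values was not tested.

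**Figure D4:**
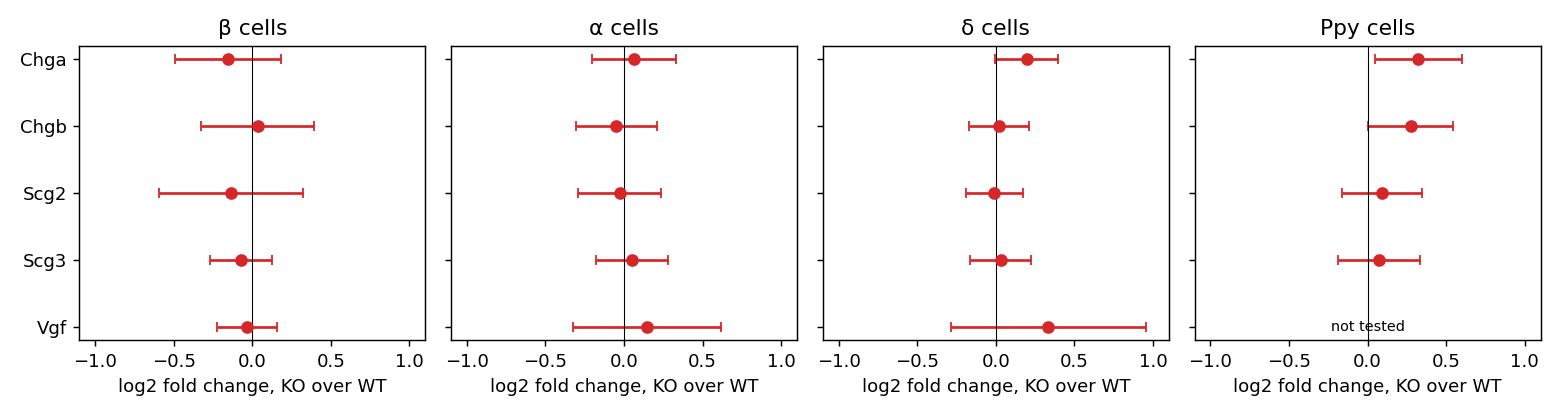
Log2 fold change of KO over WT for each member in β, α, δ, and Ppy cells (horizontal axis, 0 marked by a line), with 95% confidence intervals from edgeR over 3 WT and 3 KO libraries. The intervals cross 0 in β, α, and δ cells, and those of Chga and Chgb in Ppy cells lie above 0 before correction for the number of genes.

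The difference between genotype effects in 2 classes was tested with a genotype by class term in limma-voom with library as a random block. It called 0.0176% of 11354 genes for α minus β cells, 0.00881% for δ minus β, and 0.00881% for *Ppy* minus β cells, with *Ywhaz* called each time and *Mpdz* in the first. No member was called. *Chga* had terms of 0.49 for *Ppy* minus β (95% CI 0.15 to 0.83, unadjusted p = 0.00616, FDR = 0.998, limma) and 0.35 for δ minus β cells (unadjusted p = 0.0320, FDR = 1.00, limma), and *Vgf* one of 0.40 for δ minus β cells. Without WT library 1 the δ minus β term of *Chga* fell to 0.13. The 3 terms share their β cells.

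No gene of the granule list and none of the regulators was called between genotypes in any class by edgeR or DESeq2. At an unadjusted p under 0.05 edgeR had 0 of 18 granule genes in β cells and 1 of 18 in each of α, δ, and *Ppy* cells, and 0 of 9 regulators in β, 1 of 8 in α, 0 of 8 in δ, and 2 of 8 in *Ppy* cells. Over all genes that p was met by 628 of 13346 in β, 385 of 10208 in α, 400 of 10569 in δ, and 345 of 7625 in *Ppy* cells. The share of cells with a member UMI, thinned to 5000 UMIs, was compared in 20 exact permutation tests. The smallest p was 0.1, the lowest that 3 against 3 can give, for *Scg2* in α cells (93.8% ± 2.06 in WT and 97.5% ± 0.437 in KO, SD, n = 3, beside 39.8% to 82.4% of endothelial cells), and every adjusted p was 1.00. Median UMIs per cell ran from 12463 to 18101.5 in KO and from 15644.5 to 25907 in WT α cells, from 11458 to 16428.5 and from 15445.5 to 22069 in δ cells, and from 18620 to 27759 and from 21484 to 38275.5 in *Ppy* cells. In β cells they ran from 20837 to 30244 in the KO cells without *Ywhaz* and from 28619 to 43777 in WT. KO thus reached lower in every class with overlapping ranges, and the part of depth in the result was not tested beyond the fit on thinned cells, in which no member was called.

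Non-endocrine cells carried member UMIs too. As background, free RNA from broken cells enters droplets, and RNA of a single source keeps its genes in a fixed ratio. The members were therefore set against the level that *Ins2* in the same cells predicts from β cells of the same library. *Chga* stood at 139 to 480 CPM in endothelial cells, at 211 to 599 CPM in macrophages, and at 284 to 805 CPM in B cells, below every endocrine library.

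Observed over predicted levels of *Chga* were 1.18-fold in endothelial cells, 1.24-fold in macrophages, and 1.00-fold in B cells (geometric means of 6 libraries). For *Scg3* they were 1.15-fold, 1.17-fold, and 1.00-fold, and for *Chgb* 1.26-fold, 1.31-fold, and 1.12-fold. *Scg2* was above its prediction in 6 of 6 libraries in each type, by 1.69-fold in endothelial cells, 1.55-fold in macrophages, and 1.52-fold in B cells. *Chgb* was above its prediction in 6 of 6 libraries in macrophages. These 4 tests each had p = 0.031 (exact permutation by sign flips, the smallest possible with n = 6), and none of the 13 tests passed after adjustment (adjusted p = 0.102 for these 4). With 4 of 13 tests at the smallest p, none could pass the adjustment whatever the size of its difference. *Vgf* was at 0 in 1 macrophage and 3 B cell libraries and was tested in endothelial cells only (1.20-fold, 3 of 6 libraries above).

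**Figure D5:**
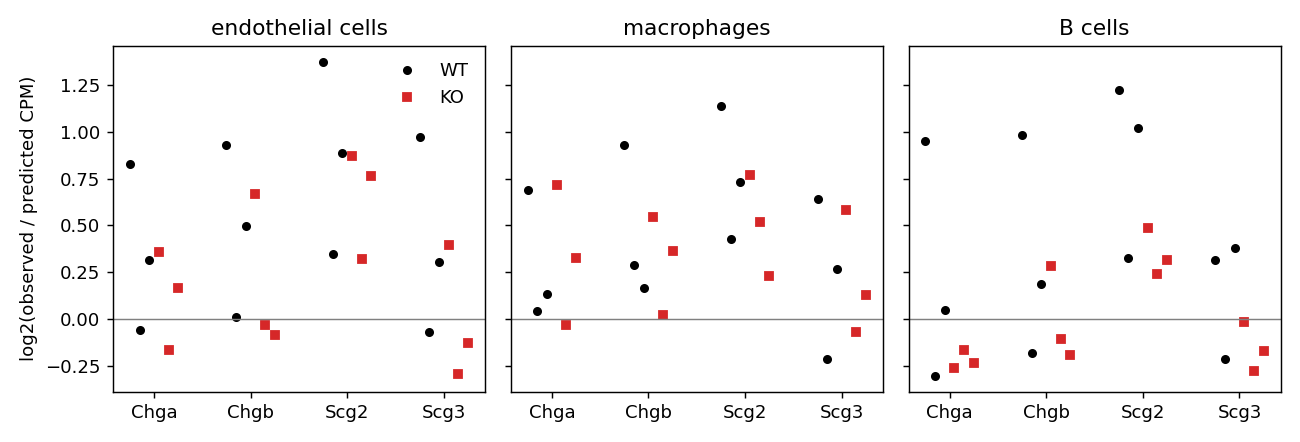
Log2 of the observed over the predicted CPM of 4 granins in endothelial cells, macrophages, and B cells (vertical axis, 0 means equal), 1 point per library (black circles WT, red squares KO). Scg2 lies above 0 in all 6 libraries of each type, and the other members lie on both sides of 0, except Chgb in macrophages.

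The proportions of the members were also set beside those in nearly empty barcodes. The ratio of *Scg2* to *Chga* was 0.657 ± 0.0594 in β cells, 0.943 ± 0.10 in endothelial cells, 0.830 ± 0.150 in macrophages, 0.998 ± 0.140 in B cells, and 0.966 ± 0.0256 in barcodes with under 500 genes (SD, n = 6). With the latter barcodes as the source in place of β cells, an alternative added after the data were seen, *Scg2* was at 1.05-fold, 0.963-fold, and 0.941-fold of its prediction in the 3 types. T cells, mesenchymal, and ductal cells had under 10 cells in some library and were not tested, and *Chga* stood there at 238 to 748, 67.3 to 613, and 251 to 1056 CPM.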

How the data were processed

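Islet single-cell RNA-Seq libraries (3 WT, 3 KO) were analysed from the UMI counts per gene and barcode that the authors deposited, whole numbers without normalization that, per the labels, came from Cell Ranger 6.0.2 with mm10. Groups and replicate numbers came from the sample titles. The members, marker lists, and gene lists were chosen with earlier results of these data known. Named genes follow a rule: the 5 members, *Scg5*, *Pcsk1n*, *Ywhaz*, the hormones, at most 4 called genes of the granule and regulator lists by size of change, and the 3 genes most like each member.

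Barcodes with under 500 genes (3485) or over 10% mitochondrial UMIs (12956) were left out, as were doublets (1584), called as the top-scored 0.8% per 1000 barcodes of a library by Scrublet (in scanpy 1.11.5). Each hormone's share of UMIs was divided by a cut-off (insulin 20%, *Gcg* 5%, *Sst* 3%, *Ppy* 10%), and a cell took the highest quotient if this was at least 1 and 3 times the next, with at least 5000 UMIs, 1500 genes, and under 0.1% of UMIs from markers of other types. Other types needed at least 1000 UMIs and 3 detected markers. Counts were summed per library and class and tested with edgeR 4.0.16 (TMM, filterByExpr) or limma 3.58.1 in R 4.3.3, with DESeq2 1.42.0 as an alternative. CPM and exact permutation tests were computed in Python 3.11.15 (scipy 1.17.1). Libraries are labelled as separate samples, and p-values for KO against WT measure the spread between libraries of a genotype. In the class contrasts, genotype by class terms, and sign-flip tests they measure how differences taken within a library vary between libraries. Intervals are 95%.

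The tests were tested on simulated data. For KO against WT, 91.9% of genes changed 2-fold were called in β cells (13322 genes simulated) and 73.1% in *Ppy* cells (7222 genes simulated). The simulation gave every gene the same spread between libraries. That spread was smaller than the common coefficient of variation fitted to the data in β cells (0.133) and close to that in *Ppy* cells (0.103). The β figure may therefore be too high. Recovery of changes under 2-fold, such as those of the members between genotypes, was not tested. Same-numbered WT and KO libraries correlated in their deviations from the group means at 0.32, 0.35, and 0.50 in β cells and at 0.22, 0.29, and 0.18 in α cells. In δ and *Ppy* cells not all did so above 0.1, at 0.08 to 0.29 and 0.01 to 0.10. Alternatives covered size factors, DESeq2, filters, hormone UMIs left out, doublets, class rules, depth, the replicate block, the library block, subtraction of free RNA, and each library left out.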

Additional observations from a re-analysis of the deposited data

Results flagged for a closer look

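Member UMIs were also found in 11546 kept barcodes that met no class rule and entered no comparison. Their median level over 6 libraries was 3175 CPM for *Chga* (1986 to 3688), 1268 CPM for *Chgb* (918 to 1949), 2327 CPM for *Scg2* (1465 to 2636), 630 CPM for *Scg3* (409 to 684), and 20.01 CPM for *Vgf* (14.6 to 27.0). Among 20 groups of 6 libraries, 1 per member and endocrine class, none held a library past Dixon's critical value.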

How the results depend on the processing

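No member was called between genotypes under any alternative run. Called genes over all genes were 1 in β, 0 in α, 0 in δ, and 1 in *Ppy* cells, and changed to 9, 1, 0, and 0 with DESeq2 and to 6, 96, 14, and 5 without the filter on low counts. With the replicate number as a block they were 13, 4, 4, and 3, and the block changed no call of a member. In *Ppy* cells 2 genes were called without doublet calls and 0 with cells thinned to 5000 UMIs. Leaving out each library in turn gave 1 to 3 genes in β, 0 to 2 in α, 0 to 3 in δ, and 1 to 6 in *Ppy* cells, and 1 to 3 for the α minus β term, which was 1 with all KO β cells kept. Thinned cells gave 3380, 3316, 2148, 2096, 751, and 885 called genes of 6813 tested in the class contrasts (α, δ, and *Ppy* against β, α against δ, α against *Ppy*, δ against *Ppy*), with fewer genes tested. The causes of the other changes were not tested.

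The sign of 1 called log2 fold change turned, that of *Scg3* in δ against β cells (-0.54), which was 0.037 in CPM, and the other signs that turned belonged to differences that were not called. For KO against WT they turned for *Vgf* in β cells with all KO cells kept (0.032), *Chgb* (0.043) and *Scg2* (0.081) in α cells at 10-fold dominance, *Scg3* (-0.0018) and *Vgf* (-0.073) in α cells at 20% mitochondrial UMIs, and, thinned, *Scg3* in α (-0.036) and *Scg2* in *Ppy* cells (-0.021). Between classes they turned for *Vgf* in α against β cells (0.074 at 10-fold dominance, 0.12 at 20%, 0.32 thinned, 0.23 in CPM), *Scg2* in δ against β (0.036 at 10-fold dominance, 0.030 thinned, 0.54 in CPM, 0.0050 in CPM without hormones), *Scg3* in δ against β (0.037 in CPM), and *Chgb* in *Ppy* against β cells (-0.017 at 20%, -0.11 without the filter, -0.051 in CPM, -0.024 in CPM without hormones). *Vgf* in δ against *Ppy* cells passed at 10-fold dominance (1.41), at 20% (1.08), and without WT library 1 (0.91).

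Leaving out each library in turn, the log2 fold change of KO over WT crossed 0 in β cells for *Chgb* (-0.089 to 0.24), *Scg2* (-0.26 to 0.15), *Vgf* (-0.10 to 0.0098), and in α cells for *Chga* (-0.019 to 0.10), *Chgb* (-0.11 to 0.066), *Scg2* (-0.11 to 0.10), *Vgf* (-0.093 to 0.37), and in δ cells for *Chgb* (-0.020 to 0.095), *Scg2* (-0.037 to 0.020), *Scg3* (-0.053 to 0.082), and in *Ppy* cells for *Scg3* (-0.089 to 0.19). Between classes it did so in δ against β cells for *Scg2* (-0.091 to 0.071), and in *Ppy* against β cells for *Chgb* (-0.080 to 0.068). The difference of genotype effects crossed 0 in the α minus β term for *Chgb* (-0.16 to 0.013), *Scg2* (-0.024 to 0.18), *Vgf* (-0.0087 to 0.43), and in the δ minus β term for *Chgb* (-0.13 to 0.076), *Scg2* (-0.14 to 0.24), *Scg3* (-0.0088 to 0.19), and in the *Ppy* minus β term for *Scg2* (-0.11 to 0.40), *Scg3* (-0.0015 to 0.30), *Vgf* (-0.42 to 0.38).

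Log2 ratios to the level predicted from *Ins2* crossed 0 with single libraries left out in B cells for *Chga* (-0.18 to 0.066), *Chgb* (-0.0034 to 0.23), *Scg3* (-0.073 to 0.058), and in endothelial cells for *Vgf* (-0.022 to 0.57). With 4 endocrine sources they turned for *Chgb* in endothelial cells (-0.025) and macrophages (-0.0054) and for *Chga* (-0.15), *Chgb* (-0.14), and *Scg3* (-0.16) in B cells. With barcodes under 500 genes as the source they turned for *Vgf* in endothelial cells (-0.032), *Scg2* in macrophages (-0.054), and *Chga* (-0.12), *Chgb* (-0.063), and *Scg2* (-0.088) in B cells. Without thinning, the KO minus WT share of cells with a UMI turned for *Chgb* (-0.130 percentage points) and *Vgf* (-2.40) in β cells and for *Vgf* in α (0.574) and δ cells (-0.230). The CPM scales, thinned sums, and low-gene source were chosen after seeing the data. *Ppy* cells numbered 16 to 47 per library.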
